A study of Mus musculus with 14 samples.

Results

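The Th2 factor and cytokine genes described here are *Gata3*, *Il4*, *Il5*, *Il13*, *Il1rl1*, *Il10*, and *Nfil3*. They were chosen by name and make up 7 of the 48697 genes that had a value in every sample of at least 1 of the 2 experiments. The values are RNA-Seq expression levels of activated mouse CD4+ T cells in 14 samples, given as FPKM (fragments scaled to the length of the transcript and to the size of the library). In the first experiment, CD4+ T cells of 4 WT and 4 HDAC1cKO-HDAC2HET samples (labelled HDAC1f/f HDAC2f/+ x CD4cre) were stimulated through CD3 and CD28 and kept in culture with IL-2, but without polarizing cytokines, over 3 days. In the second, cells of 3 WT and 3 HDAC1cKO samples (HDAC1f/f x CD4cre) had the same 3 days of culture followed by a second anti-CD3 stimulus of 12 hours. The study as a whole used mice of both sexes, of C57BL/6 background and young adult, with littermate controls, and the sex of these samples is described below. CD4-driven Cre deletes in T cells only, from a late thymic stage on, so that CD8+ T cells of these mice carry the deletion as well. Naive CD4+ cells had been sorted before culture. The comparisons address how the loss of HDAC1, with or without the loss of an *Hdac2* allele, changes these genes. As genotype and restimulation differ together between the experiments, the mutants were compared with WT inside each experiment.

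T helper 2 (Th2) cells are the CD4+ T cell subset known for responses to helminths and for allergic inflammation. GATA3 is their defining transcription factor and is induced by IL-4 through STAT6, and it acts on a locus in which *Il4*, *Il13*, and *Il5* lie beside the DNA repair gene *Rad50*. Naive cells activated without IL-4 express *Gata3* at a low level and release little of these cytokines. *Il1rl1* encodes ST2, the receptor through which IL-33 acts on Th2 cells. *Il10* encodes an anti-inflammatory cytokine made by Th2 and other T cell subsets, and *Nfil3* encodes NFIL3 (E4BP4), a basic leucine zipper factor known to act on *Il10* and on Th2 cytokine genes and to be required for natural killer cells.

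The libraries carried the labelled deletions. *Hdac1* was at 76.3 to 79.6 FPKM in the activated WT samples and at 6.65 to 10.7 in the HDAC1cKO-HDAC2HET samples, and at 72.3 to 81.1 against 8.52 to 12.1 in the restimulated experiment. *Hdac2* was at 58.2 to 60.3 against 34.0 to 37.0 in the activated experiment. Markers of T cell identity were present in all samples, with the sum over *Cd3d*, *Cd3e*, *Cd3g*, *Cd4*, *Cd28*, *Trac*, and *Lck* at 1654 to 2254 FPKM in the activated samples, and all 7 fell in HDAC1cKO-HDAC2HET cells (median log2 fold change -0.38, against -0.05 over all genes tested). The *Xist* level, which is high in female cells, was at 26.0 to 65.2 FPKM in all 8 activated samples. In the restimulated experiment it was at 42.9 and 33.2 in WT replicates 1 and 3, whereas it was at most 0.0435 in WT replicate 2 and in the 3 HDAC1cKO samples, so that sex and genotype were largely confounded there. The Y-linked *Ddx3y* was at 0.0176, 18.3, and 1.93 in these WT replicates, so that replicate 3 carried transcripts of both sexes. WT replicate 1 of this experiment stood apart for *Nfil3* and *Il10* and was the highest WT sample for 6 of the 7 members (all but *Il1rl1*), and values without it are given beside these results where they change. In such bulk samples, fewer expressing cells and less RNA per cell cannot be told apart. Nothing in the labels says how many mice gave each sample, and the p-values measure the spread between these samples.

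The region before the start of the 3 cytokine genes of the Th2 locus and of *Il1rl1* is shown first, since GATA3 is known to act on these genes, and since they are among the members that were weakly expressed here. The windows are the 250 bases before the start on the gene's own strand, from RefSeq on GRCm38.p6 (mm10), and 6 of the 7 members matched the table. Capitals mark the GATA motifs (AGATAA and AGATAG, and likewise TGATAA and TGATAG) and the core GGAAA of NFAT sites, on either strand. They lie at chr11:53618666-53618915 (minus strand) for *Il4*, chr11:53634703-53634952 (minus strand) for *Il13*, chr11:53720544-53720793 (plus strand) for *Il5*, and chr1:40429320-40429569 (plus strand) for the upstream start of *Il1rl1*.
Il4: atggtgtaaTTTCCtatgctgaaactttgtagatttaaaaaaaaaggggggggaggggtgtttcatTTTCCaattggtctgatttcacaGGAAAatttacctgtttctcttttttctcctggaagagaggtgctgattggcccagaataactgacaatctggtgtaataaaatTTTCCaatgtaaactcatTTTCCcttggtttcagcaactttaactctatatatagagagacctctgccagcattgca
Il13: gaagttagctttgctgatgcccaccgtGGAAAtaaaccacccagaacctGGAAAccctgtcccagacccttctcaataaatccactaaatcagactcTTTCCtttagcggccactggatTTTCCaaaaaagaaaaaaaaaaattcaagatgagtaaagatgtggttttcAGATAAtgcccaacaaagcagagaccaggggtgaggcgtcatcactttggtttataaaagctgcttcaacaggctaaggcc
Il5: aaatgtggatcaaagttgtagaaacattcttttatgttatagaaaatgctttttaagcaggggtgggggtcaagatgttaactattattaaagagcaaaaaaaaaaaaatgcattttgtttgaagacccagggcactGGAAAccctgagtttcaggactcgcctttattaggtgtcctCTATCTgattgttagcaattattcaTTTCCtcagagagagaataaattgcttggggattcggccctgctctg
Il1rl1: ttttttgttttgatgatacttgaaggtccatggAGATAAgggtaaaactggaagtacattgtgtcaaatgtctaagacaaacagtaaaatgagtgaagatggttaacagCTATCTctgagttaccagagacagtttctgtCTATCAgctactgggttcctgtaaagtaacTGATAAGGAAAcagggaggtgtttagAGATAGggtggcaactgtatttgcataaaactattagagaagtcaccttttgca
The *Il4* window held 5 GGAAA cores and no GATA motif, and that of *Il13* held 4 cores and 1 GATA motif. The *Il5* window held 2 cores and 1 GATA motif, and the upstream *Il1rl1* window held 5 GATA motifs and 1 core. No base belonged to both motifs in any of these windows. A second annotated start of *Il4* and one of *Il1rl1* had windows with 1 GATA motif each. Of the 32851 windows of this length in the table, 26.5% held at least 1 GATA motif and 55.6% at least 1 GGAAA core. The AP-1 motif TGAGTCA or TGACTCA (4.46% of all windows), the T-box motif AGGTGTGA (1.12%), and the NFIL3 motif TTACGTAA (0.113%) were in no window of a member. The *Nfil3* window held none of the motifs searched. These matches describe the letters only, and no binding was measured.

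The genes of the 2 transcription factors had the highest levels of the 7 members in all 4 groups. FPKM is scaled to transcript length, so that genes can be set side by side. Some values here come from rows listed by gene name and others from assembled loci matched to the gene by position. The 2 kinds may differ in length scale, which limits the orders given below. In activated WT cells *Nfil3* (12.3 ± 2.2 FPKM, SD, n = 4) and *Gata3* (10.8 ± 0.642) overlapped, and every sample of both lay above every sample of the other members. The next levels were those of *Il4* (0.459 ± 0.244), *Il13* (mean 0.169, listed at 0 in 1 sample), and *Il1rl1* (0.111 ± 0.0432), each overlapping its neighbour in this order. *Il5* (0.0384 ± 0.0182) and *Il10* (0.0242 ± 0.00674) overlapped and were lowest. In HDAC1cKO-HDAC2HET cells *Nfil3* was apart from *Gata3* as the highest of the 7. In restimulated WT cells the order was *Gata3*, *Nfil3*, *Il13*, *Il4*, *Il10*, *Il5*, and *Il1rl1*, and *Nfil3* and *Il13* were the only neighbours in it that did not overlap. In restimulated HDAC1cKO cells *Nfil3* and *Gata3* again overlapped, followed by *Il4*, *Il13*, *Il10*, *Il1rl1*, and *Il5*, with no overlap between neighbours from *Gata3* downward.

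**Figure D1:**
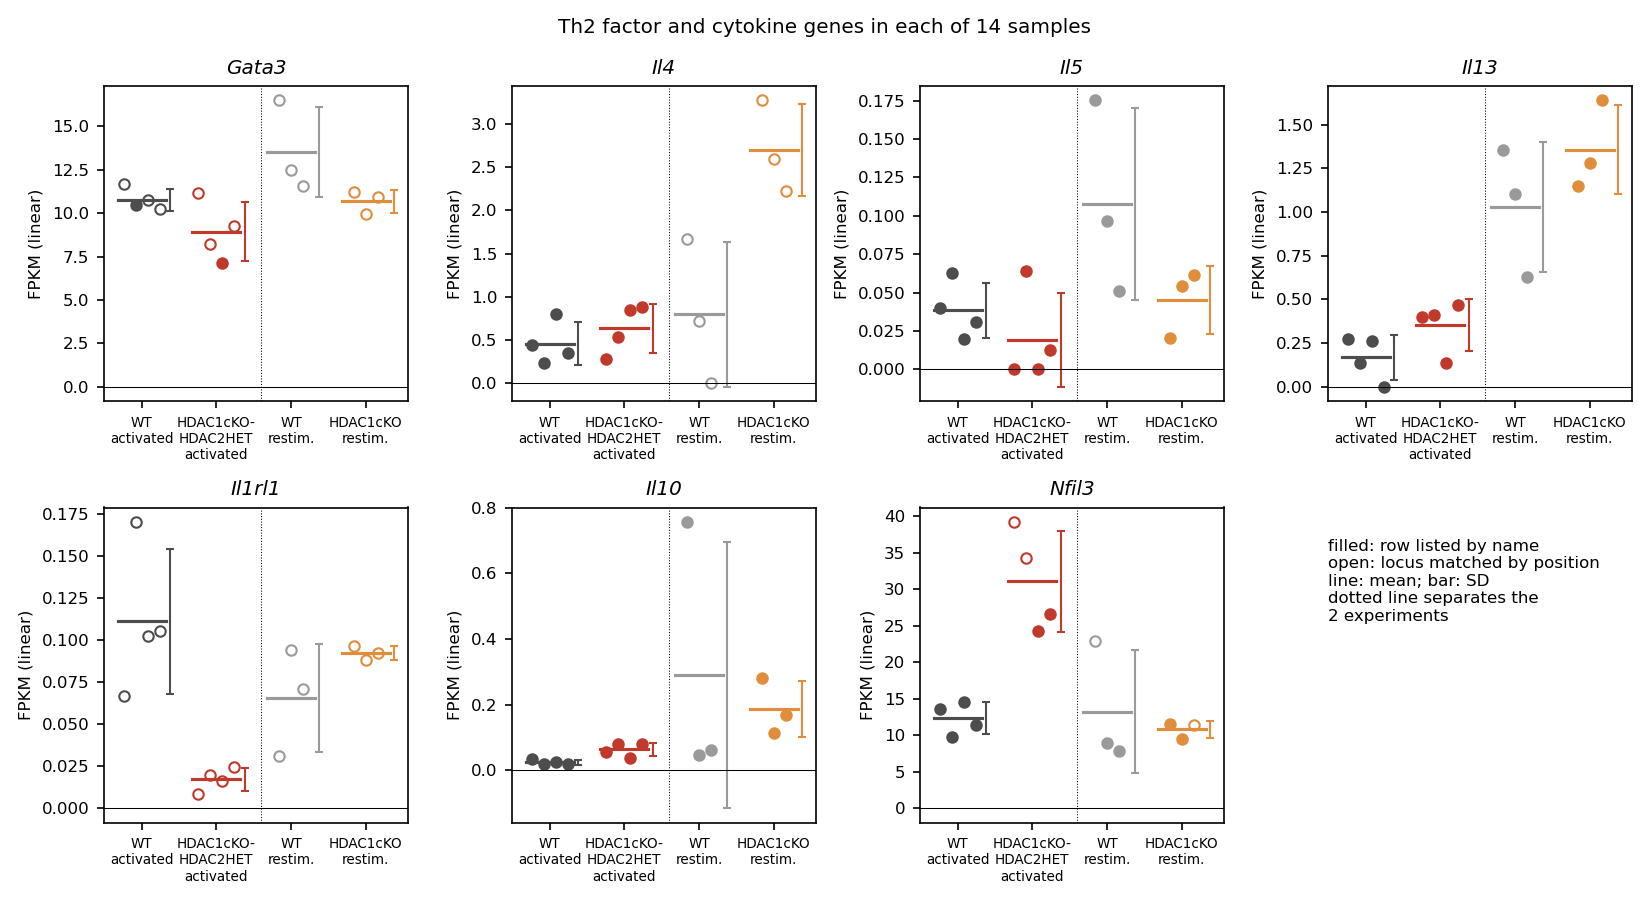
FPKM (linear axis, 1 panel a gene) of the 7 members in each of the 14 samples, in 4 groups; filled points are rows listed by gene name, open points loci matched by position, lines means, and bars the SD. In HDAC1cKO-HDAC2HET samples *Nfil3* lies between 24.2 and 39.2, above the WT range of 9.70 to 14.6, and the cytokine genes reach no more than 3.27 in any sample.

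*Nfil3* rose in HDAC1cKO-HDAC2HET CD4+ T cells. Its level was 13.6, 9.70, 14.6, and 11.4 FPKM in WT and reached 39.2, 34.3, 24.2, and 26.6 in HDAC1cKO-HDAC2HET samples. Every mutant sample was above every WT sample, and the means of 12.3 ± 2.2 and 31.1 ± 6.92 (SD, n = 4 each) stood in a ratio of 2.52. On the log2(FPKM + 0.1) scale the change was 1.32 ± 0.19 (SE, 95% interval 0.89 to 1.75, limma adjusted p = 0.000593). It was the only call among the 4 members tested (*Gata3*, *Il4*, *Il13*, and *Nfil3*). In this comparison 24.2% of the 15127 genes tested were called higher and 27.6% lower at an adjusted p of at most 0.05, and 5.59% were called higher with at least a 2-fold change. *Nfil3* was among the latter on values that mix 2 kinds of rows, as described next. The 4 WT values and those of mutant replicates 3 and 4 came from rows listed by name, and those of mutant replicates 1 and 2 from loci matched by position. Among rows listed by name alone, the mutant values of 24.2 and 26.6 remained above the highest WT value of 14.6. By the bounds that Cufflinks gives, mutant replicates 1 to 4 rested on about 1503, 1190, 958, and 2540 fragments. Replicates 1 and 2 thus had fewer fragments than replicate 4 but a higher FPKM. For *Il13*, listed by name, mutant replicates 1, 2, and 4 were at 0.400, 0.413, and 0.469 FPKM on about 17, 17, and 24 fragments. Rows of the 2 kinds may differ in length scale, so that the ratio and fold change may mix measures. The size of the rise, and whether it reached 2-fold, is therefore uncertain, and how far the kinds differ was not tested. The gene lies on the minus strand of chr13:52967209-52981073, with a single annotated transcript and no overlapping gene in GENCODE vM21.

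*Gata3* was lower in HDAC1cKO-HDAC2HET cells by less than the test could call. The 4 WT samples were at 11.7, 10.4, 10.7, and 10.2 FPKM, and the mutant samples at 11.2, 8.20, 7.14, and 9.24. 1 value in each group came from a row listed by name and the others from loci matched by position. Mutant replicate 1 lay inside the WT range and the other mutant samples lay below it. The ratio of means was 0.83, and the log2 fold change was -0.28 ± 0.13 (SE, 95% interval -0.58 to 0.01, limma adjusted p = 0.103). Without mutant replicate 1 it was -0.40 with an adjusted p of 0.0115, and without mutant replicate 3 it was -0.18 with an adjusted p of 0.205. *Gata3* (chr2:9857078-9890034, minus strand, 6 transcripts) shares 6500 bases with *9230102O04Rik* on its own strand, and 2670 and 1614 bases with *4930412O13Rik* and *Gm13256* on the other. As the sources used here do not give the strand setting of the quantification, their reads may not be separated.

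The Th2 cytokine genes were at low levels in the activated cells, and no change was detectable at this depth. *Il4* was at 0.448, 0.238, 0.801, and 0.348 FPKM in WT (chr11:53602982-53618669, minus strand, 4 transcripts) and at 0.281, 0.537, 0.848, and 0.882 in HDAC1cKO-HDAC2HET samples. The groups overlapped, and the log2 fold change was 0.40 ± 0.40 (SE, 95% interval -0.53 to 1.33, limma adjusted p = 0.442). It ranged from 0.19 without WT replicate 2 to 0.68 without mutant replicate 1. The confidence bounds that Cufflinks gives with each value correspond to about 3 to 19 fragments per sample, and cover counting error only. *Il13* (chr11:53631324-53634702, minus strand, 1 transcript), which encodes a cytokine acting on epithelium and smooth muscle, was at 0.274, 0.139, 0.262, and 0 in WT and at 0.400, 0.413, 0.134, and 0.469 in the mutant. The mutant values of replicates 1, 2, and 4 lay above all of WT, but the groups overlapped, and the log2 fold change of 0.85 ± 0.49 (SE, 95% interval -0.29 to 1.98) had a limma adjusted p of 0.188. It was 0.43 without WT replicate 4, the sample at 0, and moved from 0.21 to 1.67 between pseudocounts of 1 and 0.01. *Il5*, the eosinophil growth factor, was at 0.0402, 0.0627, 0.0200, and 0.0307 in WT and at 0, 0.0641, 0, and 0.0127 in the mutant, values that rest on about 3 fragments at most. Its mean was under the minimum of 0.1 FPKM, so that it entered no fit, and its exact 2-sided permutation p over the 8 samples was 0.286.

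*Il1rl1* and *Il10* were also under the minimum in this experiment, but in neither did the groups overlap. *Il1rl1* was at 0.0667, 0.171, 0.103, and 0.105 FPKM in WT and at 0.00833, 0.0200, 0.0165, and 0.0244 in HDAC1cKO-HDAC2HET samples, a ratio of means of 0.156, all from loci matched by position. The bounds correspond to about 6 to 9 fragments in each WT sample and to no more than 1 in each mutant sample, as a share of reads assigned to a gene of 5 transcripts (chr1:40429570-40465415, plus strand). *Il10* (chr1:131019845-131024974, plus strand, 1 transcript) was at 0.0334, 0.0193, 0.0251, and 0.0190 in WT and at 0.0567, 0.0798, 0.0383, and 0.0800 in the mutant, a ratio of 2.63. All of these *Il10* values rest on 1 to 5 fragments, and the lowest mutant value, like 3 of the WT values, on 1. The highest WT value rests on 2, so that the *Il10* groups overlap in fragments, though not in FPKM. The exact 2-sided permutation p was 0.0286 for both genes and for *Nfil3*, which is the smallest that 4 against 4 samples allow, and was above 0.1 for the other 4 members; these values are not adjusted. With no minimum level, the limma fit gave *Il1rl1* a log2 fold change of -0.83 with an adjusted p of 0.00293 and *Il10* one of 0.39 with an adjusted p of 0.0206. The groups thus did not overlap in 3 of the 7 members, higher in *Nfil3* and *Il10* and lower in *Il1rl1*. Among the genes tested, which do not include *Il10* and *Il1rl1*, 23.4% did not overlap and were higher, and 26.9% did not overlap and were lower.

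Marker lists of other cell types, some of which also express the members, moved with the groups as well. Of the 8 markers of mast cells, basophils, and eosinophils, the summed level was 0.151 to 0.298 FPKM in activated WT and 0.364 to 0.571 in HDAC1cKO-HDAC2HET samples, and *Ms4a2*, which encodes the beta chain of the high-affinity IgE receptor, rose (0.00866 ± 0.00143 to 0.221 ± 0.0813, SD, n = 4 each, limma adjusted p = 0.000605). *Mcpt8*, a defining basophil protease, was listed at 0 in 13 of the 14 samples, *Fcer1a* in 12, and *Cpa3* in 10. In the activated means, WT before mutant, *Gata2* (0.0751 and 0.0375), *Cpa3* (0.0117 and 0), and *Fcer1a* (0.00722 and 0) were lower in the mutant. *Prg2* (0.0129 and 0.0531), *Kit* (0.130 and 0.153), and *Epx* (0.00405 and 0.00448) were higher, and *Mcpt8* was at 0 in both. The groups overlapped for each of these genes, and only *Kit* was tested, which did not pass. The 5 markers of type 2 innate lymphoid cells summed to 62.6 to 86.2 in WT and 12.2 to 25.5 in the mutant, carried by *Id2* and *Rora*, which T cells also express and which both fell, while *Klrg1* was at 0 in all activated samples. Markers of B cells summed to 0.502 to 0.945 against 2.79 to 4.40, of which *Cd79b* rose, and those of CD8+ and natural killer cells to 3.28 to 5.96 against 11.7 to 15.2, where *Cd8a* and *Cd8b1* rose. *Cd8a* had means of 0.0581 and 0.439, and the natural killer cell gene *Ncr1* had means of 0.00375 and 0.00388. The paper also reports a rise of *Cd8a* at very low levels in these CD4+ T cells, with CD8α protein undetectable or low by flow cytometry. The sum for regulatory T cells was 428 to 493 against 290 to 353, carried by *Il2ra* (means of 330 and 222) and *Ctla4* (129 and 92.2). *Foxp3* was at 0 in all mutant samples and at most at 1.48 in activated WT, and at 0 in all restimulated samples. Some of these *Foxp3* values came from loci matched by position, where a 0 may be a failed estimate. The sum for myeloid cells was 0.101 to 0.274 against 0.0453 to 0.368. In the restimulated experiment these sums, WT before HDAC1cKO, were 0.426 to 0.799 against 0.268 to 2.95 for mast cells and kin, 33.6 to 76.8 against 20.5 to 23.5 for innate lymphoid cells, 0.684 to 0.803 against 0.755 to 1.04 for B cells, 3.91 to 4.86 against 6.52 to 7.31 for CD8+ and natural killer cells, 337 to 449 against 247 to 264 for regulatory T cells, and 4.75 to 5.65 against 4.02 to 5.82 for myeloid cells. The myeloid sum here includes *Cd68* (means of 5.05 and 4.52), which had no value in the activated experiment, so that the sums of the 2 experiments cannot be compared. Whether such cells contributed to the members' levels was not tested.

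In restimulated HDAC1cKO cells, none of the 4 members tested (*Gata3*, *Il13*, *Il10*, and *Nfil3*) passed the test by limma, and none had an unadjusted p under 0.05. In this comparison 0.0285% of 14016 genes were called higher and 0.0642% lower. *Gata3* was at 16.5, 12.5, and 11.6 FPKM in WT and at 11.2, 9.93, and 10.9 in HDAC1cKO samples. All HDAC1cKO values were below all WT values, with a log2 fold change of -0.32 ± 0.15 (SE, 95% interval -0.69 to 0.05, limma adjusted p = 0.395), and of -0.17 without WT replicate 1, where the groups still did not overlap. *Nfil3* was at 22.9, 8.95, and 7.79 in WT and at 11.6, 9.50, and 11.5 in HDAC1cKO samples. WT replicate 1, the one WT value from a locus matched by position, was above all other samples, and the log2 fold change of -0.11 ± 0.41 (SE, 95% interval -1.11 to 0.88, limma adjusted p = 0.928) became 0.37 without it, with an adjusted p of 0.25.

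With all samples, *Il4* was the one cytokine gene whose groups did not overlap in the restimulated cells. *Il4* was at 1.67, 0.719, and 0 FPKM in WT and at 3.27, 2.59, and 2.22 in HDAC1cKO samples, so that every HDAC1cKO sample was above every WT sample. All 6 values came from loci matched by position, and that of WT replicate 3 was listed at 0, which may be a failed estimate, so that the gene was left out of the fit. The exact 2-sided permutation p was 0.1, the smallest that 3 against 3 samples allow, and with the value of 0 kept, the log2 fold change was 2.39 with a limma adjusted p of 0.377. The ratio of means was 3.38, and 7.49 without WT replicate 1. Among mast cell and basophil markers, HDAC1cKO replicate 1, with the highest *Il4*, had *Mcpt8* at 0.755, *Cpa3* at 0.57, and *Ms4a2* at 0.289. *Ms4a2* was at 0.03 and 0.146 in HDAC1cKO replicates 2 and 3 and at most at 0.0655 in WT, and *Mcpt8* was at 0 in all of these. The part of such cells in the *Il4* level was not tested. *Il13* was at 1.35, 1.10, and 0.626 in WT and at 1.15, 1.28, and 1.64 in HDAC1cKO samples, which overlapped (log2 fold change 0.41 ± 0.31, SE, 95% interval -0.35 to 1.18, limma adjusted p = 0.591). Without WT replicate 1 the *Il13* groups did not overlap, with a log2 fold change of 0.62 and an adjusted p of 0.355, and without WT replicate 3 the log2 fold change was 0.12. The counts of members without overlap were 1 higher (*Il4*) and 1 lower (*Gata3*) of 7. Among the genes tested, which do not include *Il4*, these shares were 9.92% and 12.3%. Without WT replicate 1 the counts were 4 higher (*Il4*, *Il13*, *Il10*, and *Nfil3*) and 1 lower (*Gata3*), against 15.4% and 24.0% of the genes tested.

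*Il10* was set by a single WT library in this experiment. It was at 0.757, 0.0480, and 0.0631 FPKM in WT and at 0.280, 0.113, and 0.170 in HDAC1cKO samples. WT replicate 1 rested on 31 fragments and the other WT samples on 2 each, whereas the HDAC1cKO samples had 5 to 11. With all samples the log2 fold change was 0.03 ± 0.74 (SE, 95% interval -1.78 to 1.84, limma adjusted p = 0.992). Without WT replicate 1 the HDAC1cKO mean was 3.38 times that of WT, with a log2 fold change of 0.85 and an adjusted p of 0.322. *Il5* was at 0.175, 0.0967, and 0.0513 in WT and at 0.0202, 0.0540, and 0.0612 in HDAC1cKO samples, and *Il1rl1* at 0.0311, 0.0943, and 0.0713 against 0.0967, 0.0884, and 0.0927. Both overlapped and were under the minimum level. *Il5* (chr11:53720794-53725106, plus strand, 1 transcript) shares 666 bases with the antisense gene *Gm12214*.

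Set side by side, the mean of restimulated WT samples was 6.09 times that of activated WT samples for *Il13*, 1.74 times for *Il4*, 2.81 times for *Il5*, and 12 times for *Il10*. It was 1.26 times for *Gata3*, 1.07 times for *Nfil3*, and 0.589 times for *Il1rl1*. Without restimulated WT replicate 1 the ratio turned below 1 for *Il4* (0.783) and *Nfil3* (0.68), was 2.3 for *Il10* and 1.93 for *Il5*, and was 5.12 for *Il13*, 1.12 for *Gata3*, and 0.744 for *Il1rl1*. No test was made, as restimulation and experiment cannot be told apart, and the locus taken for *Il4* (chr11:53612460-53618669 in the activated and chr11:53602982-53618669 in the restimulated experiment) and for *Gata3* (ending at 9878600 and at 9890034) differed between them.

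The fold changes of the 2 mutants were compared over all 14 samples. Of the 3 members tested in both experiments, *Nfil3* differed, with the change in HDAC1cKO-HDAC2HET cells above that in HDAC1cKO cells by 1.43 ± 0.44 on the log2 scale (SE, 95% interval 0.47 to 2.39, limma adjusted p = 0.0463). Among 12362 genes, 15.7% were called for this difference. The call was lost when the spreads of the experiments were kept separate (adjusted p = 0.0838) or sex was a term (difference 1.05, adjusted p = 0.27), and without any of the activated WT replicates 1 to 4, HDAC1cKO-HDAC2HET replicates 1, 2, or 4, or the HDAC1cKO replicates 1 to 3 (adjusted p 0.055 to 0.0916). The difference was 0.95 with an adjusted p of 0.0324 without restimulated WT replicate 1. Of the *Nfil3* values, those of HDAC1cKO-HDAC2HET replicates 1 and 2, restimulated WT replicate 1, and HDAC1cKO replicate 3 came from loci matched by position. The others came from rows listed by name, so that the *Nfil3* difference may mix measures, which was not tested. For *Gata3* the difference was 0.04 ± 0.20 (SE, 95% interval -0.41 to 0.48, limma adjusted p = 0.931) and for *Il13* it was 0.44 ± 0.65 (-0.98 to 1.85, limma adjusted p = 0.708).

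Receptors of the members and genes that transmit their signals changed in HDAC1cKO-HDAC2HET cells in both directions. Of 77 genes in 7 lists around the members, 56 were tested in this comparison, of which 21 rose, 18 fell, and 17 did not pass. Their median log2 fold change was 0.09, against -0.05 over all genes tested. Of all 15127 genes tested in this comparison, 24.2% were called higher and 27.6% lower, against which each list count is to be read. In the list of IL-4 and IL-13 receptors and signalling, 1 of 6 genes tested rose and 2 fell (median -0.06). *Il4ra*, the receptor chain shared by both cytokines, rose from 45.2 ± 6.92 to 76.0 ± 4.51 FPKM (SD, n = 4 each, log2 fold change 0.76 ± 0.10, limma adjusted p = 0.000505). *Jak3*, the kinase bound to the common gamma chain, fell from 91.2 ± 3.39 to 36.6 ± 2.2 (log2 fold change -1.31 ± 0.05, limma adjusted p = 1.52e-06), and *Jak1* fell by 0.13 on the log2 scale. *Stat6*, the transducer of both cytokines, did not pass, at a ratio of 0.974. In the list of receptors of the other members, 2 of 4 genes tested rose and 1 fell (median 0.52). *Il10ra*, the ligand-binding chain of the IL-10 receptor, was at 11.9, 11.4, 10.1, and 8.68 in WT and at 48.3, 55.3, 44.6, and 47.8 in the mutant (log2 fold change 2.22 ± 0.11, SE, limma adjusted p = 4.21e-06). *Stat3*, which acts downstream of it, rose 1.93 times, and *Il1rap*, the coreceptor of ST2, fell to 0.619 of WT.

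**Figure D2:**
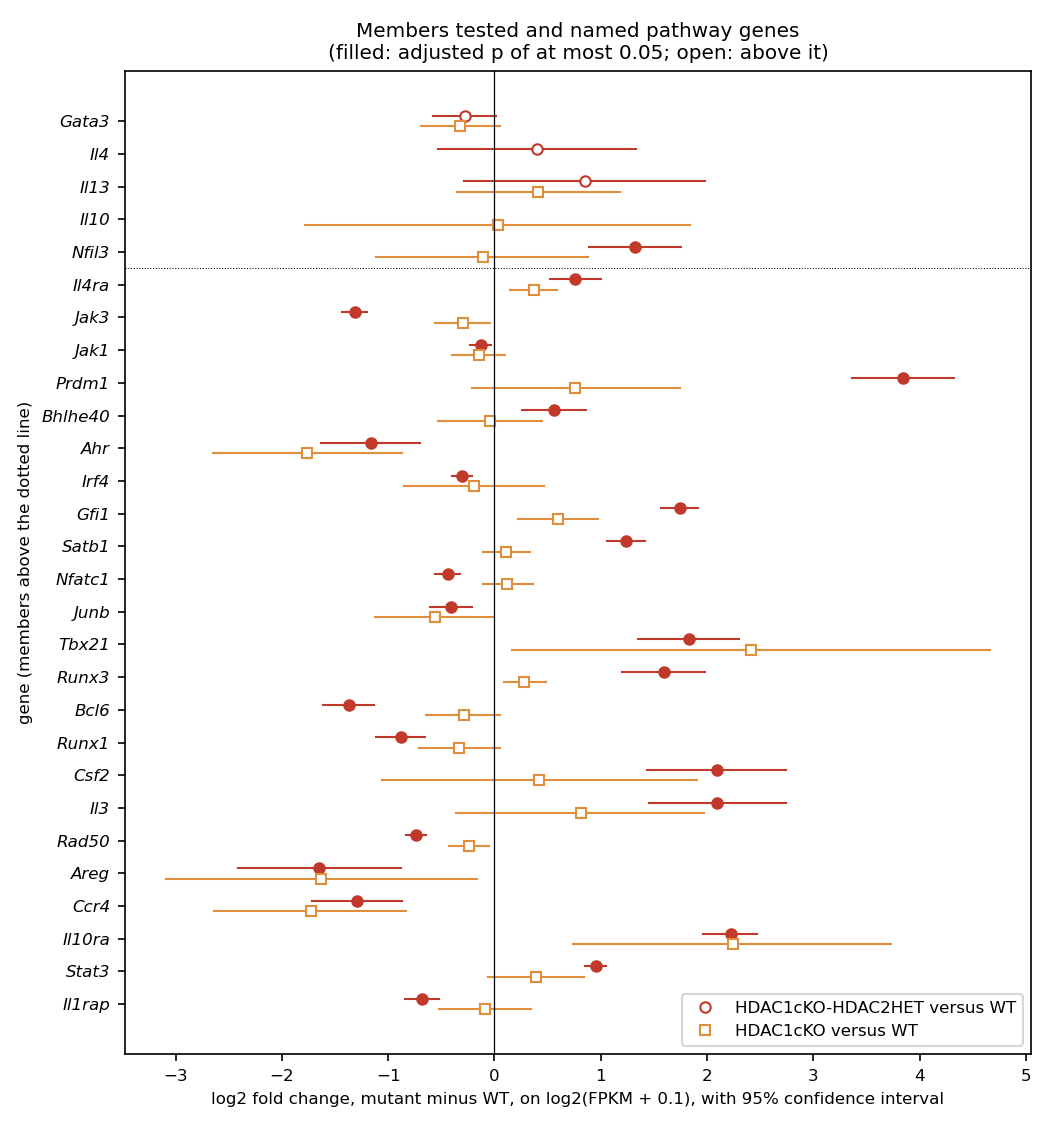
Log2 fold changes of mutant minus WT, on log2(FPKM + 0.1), with 95% confidence intervals, for the members tested (above the dotted line) and the pathway genes named; circles are HDAC1cKO-HDAC2HET, squares HDAC1cKO, and filled symbols passed an adjusted p of 0.05. Among the members only *Nfil3* in HDAC1cKO-HDAC2HET cells is filled, at 1.32, and no square is filled.

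Factors around the members moved in both directions. Of the 16 factors acting with GATA3 or on the Th2 cytokine genes, all were tested, 3 rose and 5 fell (median 0.00). *Gfi1*, a repressor known to favour growth of Th2 cells, rose from 22.0 ± 1.86 to 73.9 ± 5.26 FPKM (SD, n = 4 each), and *Satb1*, a chromatin organizer known to act at the Th2 locus, rose from 61.3 ± 3.44 to 146 ± 14.5 (limma adjusted p of 2.23e-06 and 1.05e-05). *Nfatc1* and *Junb*, transcription factors of T cell receptor signalling, fell to 0.738 and 0.748 of WT. *Maf*, an activator of *Il4* and *Il10*, was at 0.133 ± 0.0498 in WT and 0.178 ± 0.0181 in the mutant and did not pass. In the list of factors opposing Th2 differentiation, 3 of 8 genes tested rose and 4 fell (median -0.03), with the largest rises in *Tbx21* (3.42 times) and *Runx3* (3.09 times), which encode T-bet and RUNX3, and the largest falls in *Bcl6* (0.356 of WT) and *Runx1* (0.54 of WT). In the list of factors acting on *Il10*, 2 of 7 rose and 2 fell (median 0.09). *Prdm1*, which encodes Blimp-1, rose from 0.108 ± 0.0253 to 2.95 ± 0.788, and *Bhlhe40*, a repressor of *Il10*, rose 1.46 times. *Ahr*, a ligand-activated factor, fell from 0.437 ± 0.0858 to 0.141 ± 0.0502, and *Irf4* fell to 0.81 of WT.

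Other genes associated with Th2 cells likewise moved both ways, with 6 of 11 tested rising and 4 falling (median 0.44). The largest rises were those of *Il3*, at 2.11, 1.83, 2.34, and 1.31 FPKM in WT and 5.39, 12.9, 8.19, and 8.10 in the mutant, and of *Csf2*, which encodes GM-CSF, at 12.6, 5.54, 7.63, and 6.87 against 24.0, 33.1, 46.5, and 33.6. The largest falls were those of *Ccr4*, a chemokine receptor of Th2 and skin-homing cells (37.2 ± 7.6 to 15.1 ± 2.81, SD, n = 4 each), and of *Areg*, which encodes amphiregulin (0.837 ± 0.169 to 0.218 ± 0.127). The Th2 marker *Ptgdr2* was listed at 0 in all 14 samples.

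*Il3* and *Csf2* lie on the same stretch of chromosome 11 as *Il4*, *Il13*, and *Il5*, and the neighbours of the Th2 cytokine locus were therefore described as a list. Of 10 neighbours tested, 7 rose, 1 fell, and 2 did not pass in HDAC1cKO-HDAC2HET cells (median 0.88, against -0.05 over all genes tested). Of all genes tested, 24.2% were called higher and 27.6% lower. *Il3* and *Csf2* were also among the rises of the former list. *Rad50*, which lies between *Il13* and *Il5* and holds regulatory elements of the locus, fell from 17.8 ± 0.470 to 10.7 ± 0.475 FPKM (SD, n = 4 each, log2 fold change -0.74 ± 0.04, limma adjusted p = 6.04e-06). *Kif3a*, on the other side of *Il4*, and *Irf1* rose by 0.81 and 0.54 on the log2 scale. *Pdlim4*, *P4ha2*, *Csf2*, *Il3*, and *Acsl6*, whose starts lie 450345 to 685129 bases from that of *Il4*, rose by 0.94 to 2.09. The cytokine genes between them gave 0.40 for *Il4* and 0.85 for *Il13*, neither past the threshold, and *Il5* was not tested.

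**Figure D3:**
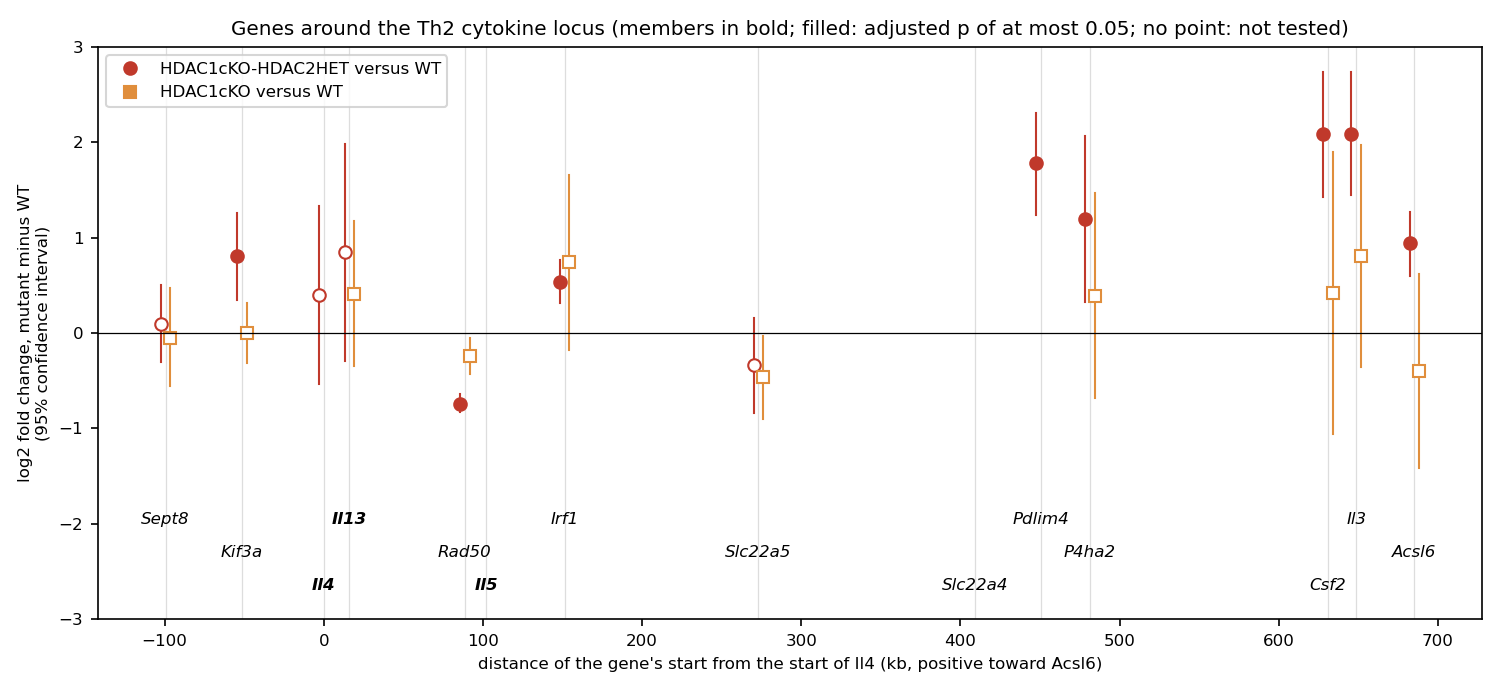
Log2 fold change of mutant minus WT with 95% confidence interval against the distance of each gene's start from that of *Il4* (kb), for genes around the Th2 cytokine locus; circles (HDAC1cKO-HDAC2HET) and squares (HDAC1cKO) are drawn slightly apart at each position, filled symbols passed an adjusted p of 0.05, and a gene without a symbol was not tested. The circles of *Csf2* and *Il3* lie at 2.09 and that of *Rad50* at -0.74, while the intervals of *Il4* and *Il13* include 0.

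In restimulated HDAC1cKO cells none of the 58 list genes tested passed by limma, and 17 had an unadjusted p under 0.05 (1992 of all 14016 genes did). *Il10ra* was at 12.6, 3.26, and 18.4 FPKM in WT and at 44.5, 41.8, and 44.0 in HDAC1cKO samples, without overlap. *Ccr4* (53.2, 52.2, and 20.8 against 12, 11.7, and 11) and *Areg* (8.76, 2.16, and 2.01 against 0.874, 0.826, and 1.49) did not overlap either and were lower in the mutant. *Il3* (17.8, 7.70, and 14.2 against 12.2, 23.5, and 36.5) and *Csf2* (61.2, 24.3, and 59.4 against 25.9, 93.5, and 87.2) overlapped.

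The genes whose levels were most like those of a member over the 14 samples were found by Pearson correlation of log2(FPKM + 0.1) among the genes tested in both experiments. The points share genotype, experiment, and library, and the correlations are a description. For *Nfil3* they were *Pim1* (0.971), *Mapkapk2* (0.969), and *Gpt2* (0.965). For *Gata3* they were *Gm26617* (0.947), *Wdr37* (0.943), and *Zbtb10* (0.933), and for *Il13* they were *Ift57* (0.926), *Cd44* (0.925), and *Ttc39c* (0.924). The other members were not tested in both experiments and were left out.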

How the data were processed

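RNA-Seq was performed on 14 samples of activated mouse CD4+ T cells. The paper describes 50-bp single reads mapped to mm10 with TopHat and FPKM values calculated with Cufflinks, for RNA of the 3-day cultures. It takes the restimulated data from an earlier study, whose processing it does not give. The deposited values of both experiments are Cufflinks FPKM, and no counts were used here. Genes listed by name numbered 36661 to 38521 in the libraries of the first experiment and 24351 to 25115 in those of the second. The submitters' processing notes also list STAR 2.5.2b and Subread 1.5.1 with no stated role. As Cufflinks assembled each library alone, a gene not listed by name in a file was taken from the assembled locus that shared at least 0.8 of the joint span with the gene or a transcript in GENCODE vM21. A gene with an assembled locus listed at 0 in a sample was left out, which affected *Il4* in the restimulated experiment. Total depth is not in the files. Fragments behind a low value were derived from the Cufflinks bounds, which lie 2 SD from it, and are approximate for genes with several or overlapping transcripts.

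For each experiment on its own, log2(FPKM + 0.1) was fitted by limma (version 3.58.1, R 4.3.3) with an intensity trend, leaving out genes under a mean of 0.1 FPKM, and p-values were adjusted over all of them by Benjamini-Hochberg. A fold change on this scale understates the change of low genes. The difference between the mutants was a contrast over 4 group means. Single members were also tested by 2-sided exact permutation of samples (70 or 20 arrangements) in each experiment. Scripts were tested on simulated data. The members and lists were chosen with earlier results of these data known. All members were named, and from each list the 2 largest rises and falls past the threshold, plus the 3 genes most like a member; *Stat6*, *Maf*, *Ptgdr2*, *Kif3a*, *Irf1*, *Pdlim4*, *P4ha2*, *Acsl6*, the cell type markers described, and the sex genes were named in addition, after their values were seen. No 2 samples were identical, and the median absolute log2 difference between replicates was 0.0713 to 0.243. Alternatives changed the pseudocount, the filter, scaling, weights, the variance model, the matching of loci, a replicate block, and each sample in turn. Keeping assembled loci at 0, and leaving out each sample in the counts of members without overlap, were added after the data were seen. Figures were drawn with matplotlib 3.10.9.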

Additional observations from a re-analysis of the deposited data

Results flagged for a closer look

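*Nfil3* was the only member flagged. Its log2 fold change in HDAC1cKO-HDAC2HET cells exceeded that in HDAC1cKO cells by 1.43 (limma adjusted p = 0.0463), a difference between groups by a test of the difference itself, and it passed the threshold in 6 of 20 alternatives (0.95 to 1.72, adjusted p 0.0206 to 0.27). Genotype, restimulation, and experiment cannot be told apart in it. Its values also came from rows of 2 kinds, listed by name and matched by position, which may differ in length scale. In none of the 14 groups of 4 activated samples, 2 for each member, did 1 sample stand apart by Dixon's test, which chance alone would give in about 1 in 20 groups. Groups of 3 were not put to that test. It thus did not cover the restimulated samples, among them WT replicate 1, at 0.757 FPKM for *Il10* against 0.0480 and 0.0631 in the other WT samples.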

How the results depend on the processing

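No alternative that tested *Nfil3* in the activated experiment took all of its values from rows of 1 kind. The rise of *Nfil3* in HDAC1cKO-HDAC2HET cells kept its direction and its call in all 21 alternatives that tested it (1.20 to 1.43, adjusted p 0.000328 to 0.00577). *Il4* and *Il13* passed in none there, and *Gata3* passed in 2 of 21 (sample weights, -0.29 with an adjusted p of 0.0494, and without HDAC1cKO-HDAC2HET replicate 1). The count of members called, 1 of 4, was 3 with no filter on low values, 2 with sample weights, and 0 where only genes listed by name were used, which left *Nfil3* out, and the count of all genes called fell there from 7834 to 1024. Without each sample in turn, 1 to 2 members and 7129 to 7661 genes were called. In the HDAC1cKO comparison no member was called under any alternative, while the 13 genes called became 27 with a mean FPKM of at least 1, 31 with sample weights, 8 with no intensity trend, 1352 with all 14 samples in a fit, 76 with a sex term, 7 for genes listed by name, 21 with assembled loci at 0 kept, and 11 to 57 without each sample in turn. For the difference of the fold changes, the 1 member called became 0 with quantile normalization, separate spreads, a sex term, and the replicate block, and 0 to 1 without each sample in turn. The 1937 genes became 1116 with separate spreads, 1216 with a sex term, and 1435 to 2346 without each sample in turn. Replicate numbers did not pair samples (correlation of deviations -0.02 to 0.06), and with a replicate block *Nfil3* stayed called in HDAC1cKO-HDAC2HET cells (adjusted p = 0.00577) and the 13 genes became 5. The causes were not tested, other than fewer genes or samples in a fit. A sex term could not be fitted in the activated experiment, where all samples were *Xist* positive, and was not run. The count of members without overlap, 3 and 2, was the same after median scaling, and was 3 to 4 and 2 to 5 without each sample in turn, with 5 without WT restimulated replicate 1. Levels of *Il4*, *Il5*, *Il10*, *Il13*, and *Il1rl1* rest on few fragments, which limits what could be detected.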
